A study of Mus musculus with 9 samples.

Results

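The genes described here are 9 genes of renal phosphate and vitamin D handling out of the 32427 gene symbols in the count tables of 9 mouse kidneys. They were taken by name. They comprise the type II sodium-phosphate cotransporters Slc34a1 and Slc34a3, the type III transporters Slc20a1 and Slc20a2, the vitamin D enzymes Cyp24a1 and Cyp27b1, and the receptors Kl, Fgfr1 and Vdr. Single-cell RNA sequencing was performed on kidneys of male C57BL/6 mice that were 6 weeks old at the start and were killed after 8 weeks, with 3 mice and 1 library per mouse in each of 3 groups. Control mice received saline by intraperitoneal injection. AKI-CKD mice received 4 weekly intraperitoneal injections of cisplatin at 8 mg/kg, a drug that injures proximal tubule cells. AKI-CKD + EGT mice received the same cisplatin and also ergothioneine (EGT), a dietary thiol antioxidant, at 0.5 mg/mL in the drinking water, begun before the first injection and kept up to the end. Only part of each kidney entered the assay, so every level below is that of the cells that survived dissociation and capture.

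The kidney sets the phosphate level of the blood mainly in the proximal tubule (PT), where sodium-phosphate cotransporters of the brush border take filtered phosphate back into the body. Parathyroid hormone and the bone hormone FGF23 remove these transporters from the membrane, and FGF23 acts through FGF receptors joined to the co-receptor klotho (Kl). The same tubule makes the active vitamin D hormone with Cyp27b1 and destroys it with Cyp24a1, and the hormone acts through the nuclear receptor Vdr, also in the distal tubule where it promotes calcium reabsorption.

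Promoter sequences of RefSeq (build GRCm38.p6) were held for 6 of the 9 genes, and those of 4 are printed because these genes carry the contrasts between cell types described below. Slc34a1 and Slc34a3 had their highest levels in PT S1 cells, and Kl and Vdr had theirs in connecting tubule cells. Each sequence is the 250 bases before the annotated start on the strand of the gene, 5′ to 3′, with every CG dinucleotide in capitals.
Slc34a1, chr13:55399398-55399647 (plus strand): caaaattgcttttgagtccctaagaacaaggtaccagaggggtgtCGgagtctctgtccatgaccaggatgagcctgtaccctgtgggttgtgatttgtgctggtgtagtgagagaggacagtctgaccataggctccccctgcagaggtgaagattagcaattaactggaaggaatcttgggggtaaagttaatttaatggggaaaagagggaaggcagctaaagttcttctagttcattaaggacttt
Slc34a3, chr2:25234235-25234484 (minus strand): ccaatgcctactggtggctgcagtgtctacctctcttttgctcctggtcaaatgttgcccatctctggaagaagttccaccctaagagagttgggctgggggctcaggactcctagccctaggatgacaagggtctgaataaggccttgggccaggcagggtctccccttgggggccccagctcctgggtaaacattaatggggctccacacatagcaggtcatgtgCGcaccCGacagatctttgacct
Kl, chr5:150952357-150952606 (plus strand): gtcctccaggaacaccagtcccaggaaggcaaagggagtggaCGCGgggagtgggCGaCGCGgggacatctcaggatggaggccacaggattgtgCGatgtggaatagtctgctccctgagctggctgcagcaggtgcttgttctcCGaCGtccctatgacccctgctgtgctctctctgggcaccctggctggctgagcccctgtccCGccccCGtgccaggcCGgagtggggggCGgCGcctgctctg
Vdr, chr15:97908297-97908546 (minus strand): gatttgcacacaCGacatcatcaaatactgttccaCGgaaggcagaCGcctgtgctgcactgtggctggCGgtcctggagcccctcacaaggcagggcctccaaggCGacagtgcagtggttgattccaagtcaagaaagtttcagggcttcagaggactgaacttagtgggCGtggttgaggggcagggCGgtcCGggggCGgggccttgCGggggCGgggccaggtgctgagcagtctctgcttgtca
The window of Slc34a1 held 1 CG dinucleotide and that of Slc34a3 held 2, whereas that of Kl held 13 and that of Vdr held 11. The median over 32851 windows of the same length was 6, 29% of the windows held 2 or fewer, and 37.8% held 10 or more. The count is a description of these windows, and no methylation or binding was measured here.

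The tables held 216680 barcodes with 70106161 to 101525691 unique molecular identifiers (UMIs, 1 per captured RNA molecule) per mouse, and the study's stated filters (at least 1000 UMIs, at least 500 genes, at most 15% mitochondrial counts) left 196925 cells. The study kept fewer cells than these limits leave, and which other cells it removed is not given in the sources used here. The mitochondrial limit removed 17.0% of the barcodes of Control mouse 1 and 27.7% of those of AKI-CKD + EGT mouse 3, against 0.909% to 7.94% in the other mice. Cells were clustered with the 9 genes kept out of the variable genes, and clusters were named from marker lists, so the names are rebuilt ones. They covered 185223 cells of 18 types: 63355 PT S1-like cells (named from Slc5a2, Slc5a12, Slc7a7 and other genes of the early PT), 57320 PT S3-like cells (from Slc7a13, Cyp7b1, Acy3 and other genes of its last segment), 42649 PT cells of neither segment (PT other, mainly 2 clusters), 4807 of the distal convoluted tubule (DCT), 4170 of the thick ascending limb (TAL), 2296 of the connecting tubule (CNT), and smaller sets of intercalated (IC-A and IC-B), principal, thin limb, podocyte, endothelial, stromal, immune and cycling cells. A further 11702 cells stayed unnamed, 9508 of them in 5 clusters with PT marker levels of at least 75% of those in PT cells. Of the PT other cells, 19186 form a cluster whose leading genes by fold include the CNT markers Klk1, S100g and Calb1 beside the PT gene Kap. These markers were at 662 ± 651, 482 ± 377 and 47.0 ± 32.8 CPM there, against 105750 ± 22035, 55705 ± 14727 and 3748 ± 1560 CPM in CNT cells. Kap was at 150799 ± 24251 CPM there and at 31295 ± 13197 CPM in CNT cells. The levels of Slc34a1, Slc34a3 and Fgfr1 in PT other cells are therefore also given by cluster. So are the values of Slc34a1 and Fgfr1 there for AKI-CKD + EGT against AKI-CKD.

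RNA of PT cells was found in every cell type. The median level of 8 PT genes (Gatm, Slc13a3, Ttc36, Slc22a6, Gpx3, Kap, Akr1c21 and Miox) was 25.2% ± 8.00 of the PT level in IC-A cells (SD, n = 9 mice), 50.5% ± 8.34 in T cells and 58.1% ± 10.6 in B cells, cell types that should lack these genes. Whether it came from free RNA, doublets or mixed clusters was not tested. Levels outside the PT are therefore also given in percent of the gene's own PT level beside this reference in the same cell type. The reference was itself uneven along the PT, at 79.9% in PT S1, 112% in PT S3 and 105% in PT other cells. It is therefore not matched to genes that are highest in PT S1, such as Slc34a3 and Cyp24a1. Levels are the UMIs of a gene relative to all UMIs of that cell type and mouse, written as CPM, as mean ± SD over all 9 mice, and are compared within a gene only.

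Slc34a1, the main phosphate cotransporter of the brush border, was highest in PT S1 cells at 4878 ± 402 CPM, followed by PT S3 cells at 3856 ± 288 CPM and PT other cells at 3456 ± 332 CPM. PT S1 exceeded PT S3, PT S3 exceeded PT other, and PT other exceeded the cycling cells in 9 of 9 mice, by 0.34 ± 0.067, 0.16 ± 0.083 and 0.24 ± 0.11 on the scale of log2(CPM + 1). Each of these differences had p = 0.00391 in a two-sided exact sign-flip permutation test over the mice, which is the smallest value that 9 mice allow, and adjusted p = 0.0492 over the 126 neighbouring pairs tested. All 10 pairs that passed over the 9 genes had this p and share this adjusted p. With fewer pairs at this p, none would have passed. Of the PT other clusters, the one of 23161 cells was at 3623 ± 368 CPM and above the cycling cells in 9 of 9 mice. The one with the CNT markers was at 3106 ± 357 CPM and above them in 8 of 9. In the 12 ordered cell types not named as PT, Slc34a1 lay between 29.0% of its PT level in CNT cells, where the reference was 29.9%, and 69.6% in cycling cells, where it was 57.2%. It was above the reference in 9 of 9 mice in cycling cells, in 8 in DCT, IC-A, endothelial and macrophage, in 7 in B, T and principal, in 6 in CNT and stromal, in 5 in IC-B and in 3 in TAL cells. The cycling cells are not clearly outside the PT. Their level of the PT markers used for naming was 69.6% of that in PT cells, and PT S1 was their second marker match. When each cell was thinned to 1000 UMIs, 96.4% ± 1.26 of PT S1 cells but also 71.3% ± 7.82 of T cells held a UMI of Slc34a1 (median depths 3011 and 2310 UMIs).

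Slc34a3, the second brush-border cotransporter, was much more restricted. It reached 161 ± 26.5 CPM in PT S1 cells, 54.1 ± 20.2 CPM in PT other cells and 22.6 ± 7.00 CPM in PT S3 cells. The PT S3 level was 25.7% of that of all PT cells and stood 14th in the order of 15 cell types, among types without PT identity such as DCT cells at 23.7 ± 11.7 CPM and CNT cells at 16.7 ± 9.14 CPM. Among the 12 ordered types not named as PT, Slc34a3 lay between 18.7% of its PT level in CNT cells, where the reference was 29.9%, and 96.7% in cycling cells, where it was 57.2%. It was above the reference in 8 of 9 mice in cycling cells, in 5 in B, T, stromal, IC-A and IC-B, in 4 in endothelial, in 3 in TAL, macrophage and principal, in 2 in DCT and in 1 in CNT cells. The cycling value does not show expression outside the PT, since PT S1 was the second marker match of these cells. PT S1 cells exceeded the next type, the cycling cells at 82.9 ± 27.4 CPM, by 1.00 ± 0.36 on the log2 scale in 9 of 9 mice (exact p = 0.00391, adjusted p = 0.0492). A UMI was found in 14.0% ± 1.75 of thinned PT S1 cells, 2.18% ± 0.62 of PT S3 cells, 3.23% ± 1.95 of T cells and 3.21% ± 3.51 of B cells (median depths 3011, 3557, 2310 and 1928 UMIs), so the share in PT S3 cells lay below that in the T and B cells. Within PT S1 the 3 clusters were described by mouse, with no test. The Slc34a3 level was 191 ± 31.1 CPM in the cluster led by Cxcl10, Nfkbia and other stress genes, 157 ± 27.1 CPM in the largest cluster, and 114 ± 19.8 CPM in a cluster led by Esrrg, Nhs and the nuclear RNA Malat1 among others. Against the largest cluster, 9 of 9 mice were higher in the first and lower in the last. The Slc34a1 level was 5866 ± 704 CPM in the Malat1 cluster and 4834 ± 428 CPM in the stress-gene cluster, both above the 3920 ± 465 CPM of the largest cluster in 9 of 9 mice.

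The type III transporters, which sit on the membrane of most cell types and supply phosphate to the cell itself, showed no PT restriction. Slc20a1 lay between 4.93 ± 2.46 CPM in CNT cells and 15.5 ± 5.65 CPM in endothelial cells, with 15.1 ± 7.48 CPM in PT S1 cells, and none of its 14 neighbouring pairs of cell types passed the test (smallest exact p = 0.520). In endothelial cells it was at 161% of its PT level, where the reference was 33.5%. Slc20a2 was highest in principal cells of the collecting duct at 46.0 ± 21.6 CPM and in stromal cells at 44.0 ± 10.4 CPM, which did not differ beyond their spread (exact p = 0.910). Stromal cells exceeded the next type, PT S1 cells at 24.1 ± 3.22 CPM, by 0.82 ± 0.38 on the log2 scale in 9 of 9 mice (exact p = 0.00391, adjusted p = 0.0492). In principal and stromal cells Slc20a2 was at 222% ± 104 and 212% ± 47.6 of its PT level, above the reference of 35.5% and 42.7% in 9 of 9 mice, although these rest on only 143 and 98 UMIs.

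Both vitamin D enzymes had their highest mean level in PT S1 cells among the 15 ordered cell types, a rank that passed the test against the next type for Cyp24a1 but not for Cyp27b1. Cyp24a1, the 24-hydroxylase that inactivates vitamin D metabolites, was at 99.2 ± 46.9 CPM in PT S1 cells and 28.0 ± 13.7 CPM in PT S3 cells. It exceeded the next type, B cells, in 9 of 9 mice (exact p = 0.00391, adjusted p = 0.0492). Its level varied widely between mice: in PT S1 cells the mice ran from 51.1 to 197 CPM (1453 to 4983 UMIs per mouse). Its standard deviation was 47.3% of the mean, near that of Cyp27b1 (46.3%), whereas that of Kl was 5.90%. That of Slc20a1 was 49.5%, with Control mouse 1 at 33.6 CPM and the other 8 mice between 10.1 and 19.3 CPM. Cyp24a1 was at 20.6% of its PT level in CNT cells (reference 29.9%) and 35.5% in DCT cells (reference 30.9%), a reference not matched to this gene. Its mean in PT S1 cells was 2.20-fold that in B cells and 8.45-fold that in IC-A cells. These were the highest and the lowest of the ordered types not named as PT. Cyp27b1, the 1α-hydroxylase that makes the active hormone, was close to the limit of detection. It had 647 UMIs in all PT S1 cells, or 31 to 118 per mouse, which gave 2.61 ± 1.21 CPM, and 104 UMIs in PT S3 cells, which gave 0.467 ± 0.339 CPM. PT S1 cells exceeded the next type, B cells at 1.78 ± 3.70 CPM from 4 UMIs, in 7 of 9 mice (exact p = 0.0469, adjusted p = 0.305), and none of its 14 neighbouring pairs passed. In CNT cells 0 of 5763677 UMIs came from Cyp27b1, which allows a level of up to 0.521 CPM from counting error alone, and in thinned PT S1 cells 0.214% ± 0.0939 held a UMI, against 0.128% ± 0.383 of T cells (median depths 3011 and 2310 UMIs).

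The receptors were highest outside the PT. Kl, the FGF23 co-receptor, was at 1186 ± 237 CPM in CNT cells, with mice from 700.1 to 1522 CPM, at 346 ± 47.3 CPM in DCT cells, 278 ± 128 CPM in IC-A cells and 175 ± 10.3 CPM in PT S1 cells. CNT cells exceeded DCT cells by 1.76 ± 0.21 on the log2 scale in 9 of 9 mice (exact p = 0.00391, adjusted p = 0.0492), while DCT and IC-A cells did not pass (exact p = 0.0977). In DCT and IC-A cells Kl was at 232% and 186% of its PT level, above the reference of 30.9% and 25.2% in 9 of 9 mice. An unnamed cluster of 1350 cells with CNT and principal cell markers had a pooled Kl level of 1096 CPM and a pooled Vdr level of 371 CPM. A UMI of Kl was found in 55.1% ± 8.56 of thinned CNT cells, 23.8% ± 3.07 of DCT cells, 15.4% ± 0.74 of PT S1 cells, 7.75% ± 2.97 of T cells and 7.90% ± 4.65 of B cells (median depths 1918, 2105, 3011, 2310 and 1928 UMIs). Vdr, the receptor of the active hormone, followed nearly the same order, with 414 ± 89.8 CPM in CNT cells, 208 ± 20.1 CPM in DCT cells, 147 ± 26.4 CPM in IC-A cells, 143 ± 23.4 CPM in IC-B cells and 135 ± 19.2 CPM in PT S1 cells. CNT cells exceeded DCT cells by 0.97 ± 0.32 and PT S1 cells exceeded TAL cells by 0.32 ± 0.22 on the log2 scale, both in 9 of 9 mice (exact p = 0.00391, adjusted p = 0.0492), and the types from IC-A to PT S1 did not differ beyond their spread. Vdr was at 124% of its PT level in IC-A and 121% in IC-B cells, above the reference of 25.2% and 30.3% in 9 of 9 mice. Over the 18 named cell types the logged mean levels of Kl and Vdr had a Pearson correlation of 0.95, a description over cell types that share their 9 libraries.

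Fgfr1, one of the receptors that klotho joins, had another order. Among the ordered types it was highest in stromal cells at 103 ± 41.2 CPM, followed by principal cells at 57.5 ± 24.0 CPM, DCT cells at 57.4 ± 11.2 CPM and endothelial cells at 38.6 ± 10.3 CPM, and of its 14 neighbouring pairs only PT S3 over PT other cells passed the test. Types further apart in the order were not tested. Stromal cells were above principal cells in 7, above DCT cells in 8 and above each other ordered type in 9 of 9 mice. Fgfr1 was at 11.7 ± 2.22 CPM in PT S3 cells, 8.95 ± 2.06 CPM in the PT other cluster of 23161 cells and 8.12 ± 2.23 CPM in the one with CNT markers. Podocytes, which had as few as 14 cells in a mouse and were left out of the order, were at 134 ± 80.1 CPM. Fgfr1 was above the reference in 9 of 9 mice in each of these 5 types, at 780% of its PT level in stromal (reference 42.7%), 448% in principal (35.5%), 446% in DCT (30.9%), 305% in endothelial (33.5%) and 1132% in podocytes (52.2%). In PT S1 cells Fgfr1 was at 16.5 ± 4.25 CPM, and in T and B cells at 6.42 ± 4.84 and 6.86 ± 6.12 CPM. UMIs of both Kl and Fgfr1 were found in 70 of 4807 thinned DCT cells, 35 of 2296 CNT cells and 181 of 63355 PT S1 cells. The mean share over mice was 1.44% ± 0.64 in DCT cells, where the product of the separate shares was 1.17% ± 0.32, and 1.43% ± 0.82 in CNT cells, where the product was 1.47% ± 0.42. After thinning, the observed shares lay within 1 SD of the products. With all UMIs of each cell, the share in DCT cells was 8.12% ± 1.48 beside a product of 5.50% ± 1.08, a comparison in which cells of unequal depth are mixed, and in CNT cells it was 5.94% ± 2.54 beside 4.91% ± 2.29.

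**Figure D1:**
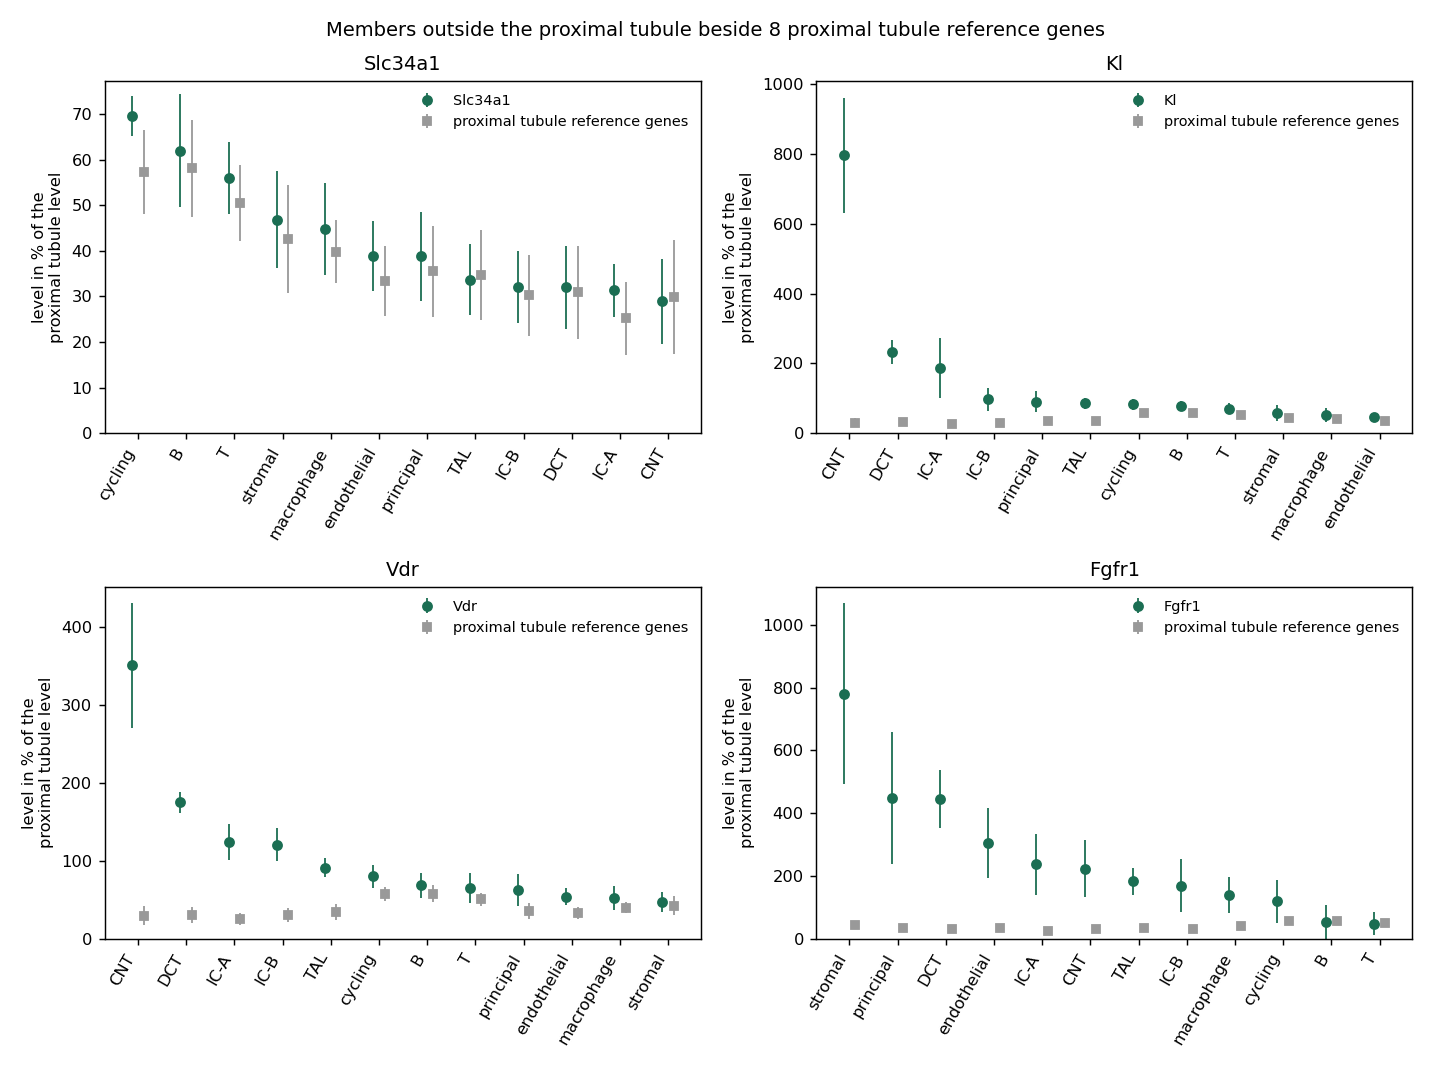
Level of Slc34a1, Kl, Vdr and Fgfr1 in cell types not named as proximal tubule, in percent of the gene's level in all PT cells of the same mouse (vertical axis, linear), by cell type (horizontal axis). Green points are the gene and grey squares the median of the 8 PT reference genes, each as mean and SD over 9 mice; Slc34a1 lies within 1 SD of the reference in most types, whereas Kl reaches 796% and Vdr 351% in CNT cells.

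The question of where along the PT these genes are expressed was then addressed within each mouse. All 9 genes were higher in PT S1 than in PT S3 cells in 9 of 9 mice (exact sign-flip p = 0.00391 each, adjusted p = 0.00570 over 12638 genes of at least 1 CPM in PT cells). This direction was the common one, since 72.2% of those genes were called higher in PT S1 cells, and the median difference of all of them was 0.33 on the scale of log2(CPM + 1). Relative to that shift the genes split into those near it and those far above it. Slc34a3 differed by 2.83 ± 0.27, above 99.96% of the genes compared, Cyp24a1 by 1.81 ± 0.34, above 98.99%, and Cyp27b1 by 1.254 ± 0.33, above 96.2%. In CPM these were 7.15-fold, 3.54-fold and 5.58-fold higher in PT S1 cells. Slc20a1 differed by 0.79 ± 0.13, above 85.9% of the genes. Slc34a1 (0.34 ± 0.067), Kl (0.38 ± 0.098), Vdr (0.31 ± 0.14), Fgfr1 (0.45 ± 0.21) and Slc20a2 (0.27 ± 0.18) lay between the 44.4th and the 62.0th percentile of all genes. With 3 other random starts of the clustering, added after the data had been seen, all 9 differences stayed past the threshold, with Slc34a3 at 3.01, 3.19 and 3.30. When the cells were clustered without correction for the library, in 4 random starts, Slc20a2 turned to -0.035 and -0.26 in 2 of them, and in 1 of them Slc20a1 (0.11), Vdr (0.077) and Fgfr1 (-0.0014) no longer passed. The differences of Slc34a3 (2.56 to 3.82), Cyp24a1 (1.57 to 2.15) and Cyp27b1 (1.23 to 1.42) stayed past the threshold in all 4.

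**Figure D2:**
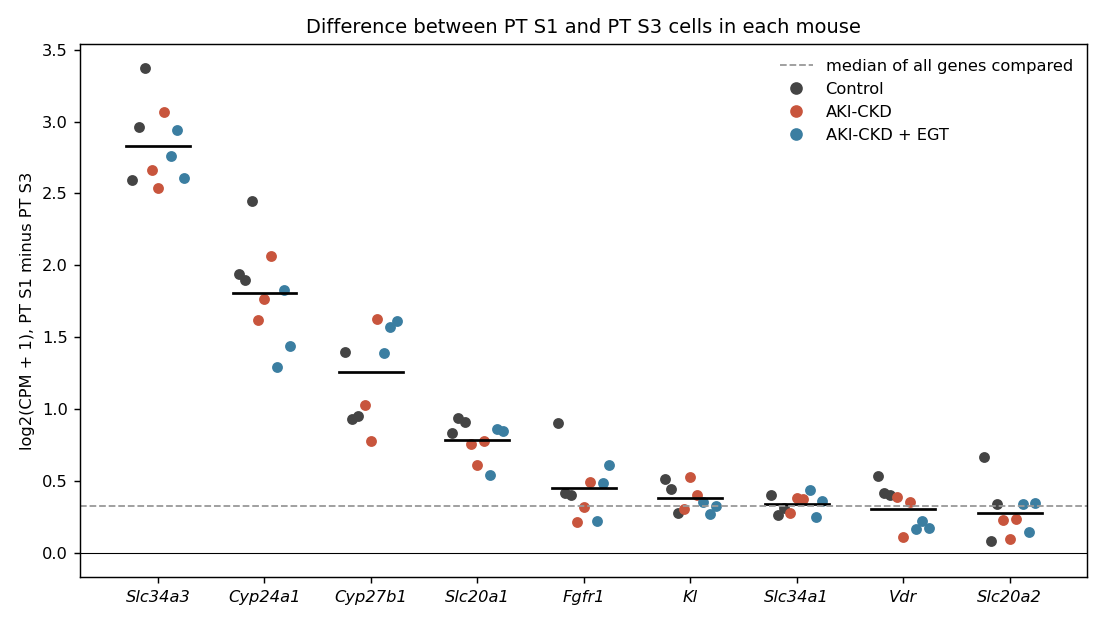
Difference in log2(CPM + 1) between PT S1 and PT S3 cells (vertical axis) for each gene (horizontal axis), with 1 point per mouse coloured by group and a black line at the mean. The dashed line is the median of all 12638 genes compared at 0.33; every point of Slc34a3, Cyp24a1 and Cyp27b1 lies above it.

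The effect of repeated cisplatin was addressed by comparing AKI-CKD with Control mice, on counts summed per mouse in 12 populations (10 cell types, all PT cells and all cells). None of the 9 genes passed edgeR's quasi-likelihood test at a Benjamini-Hochberg adjusted p under 0.05 in any population. This covered 89 tests of a gene in a population, and the smallest adjusted p was 0.351. DESeq2 called 0 of them as well. In edgeR's test 5 of the 89 had an unadjusted p under 0.05. The share of all genes at that limit ran from 359 of 6453 in CNT cells to 2194 of 16231 in PT S1 cells. The 89 tests are not independent, since all PT cells and all cells include cells of the other populations. Few genes of any kind passed: the share of all genes called was 0.0431% in PT S1, 0.0744% in PT S3, 0.0477% in PT other, 0.0229% in T, 0.259% in macrophage, 0.0444% in all PT and 0.0199% in all cells, and 0% in CNT, DCT, TAL, cycling and endothelial cells. Values by mouse are given next for PT S1 cells, as CPM after TMM normalisation in the order of mouse 1, 2 and 3.

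In Control mice Slc34a1 was at 4515, 4810 and 5141 CPM. It was at 5134, 5651 and 5660 CPM in AKI-CKD mice and at 5419, 4146 and 3720 CPM in AKI-CKD + EGT mice. The AKI-CKD mice lay at the top of the Control range or above it, with a log2 fold change of 0.19 (95% interval -0.21 to 0.58, adjusted p = 0.654 by edgeR). Slc34a3 was at 170, 135 and 108 CPM in the Control group and 156, 214 and 186 CPM in AKI-CKD mice. The groups overlapped, and its log2 fold change of 0.43 (0.035 to 0.83) had an unadjusted p of 0.0353 and an adjusted p of 0.351 in edgeR's test. The mitochondrial share of UMIs in PT S1 cells was 5.80%, 4.19% and 1.79% in the Control mice and 3.38%, 2.61% and 2.24% in the AKI-CKD mice, and its part in these levels was not tested.

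Slc20a1 was at 31.7 CPM in Control mouse 1 and at 10.7 and 9.95 CPM in the other Control mice, against 11.5, 13.5 and 13.0 CPM in AKI-CKD mice. Control mouse 1 also stood apart in PT S3 cells, at 18.4 CPM before TMM scaling against 4.91 to 10.3 CPM in the other 8 mice. The log2 fold change of -0.47 (-1.26 to 0.31, adjusted p = 0.564 by edgeR) turned to 0.29 without that mouse. Slc20a2 was even, at 26.2, 20.1 and 23.1 CPM in Control mice and between 21.6 and 25.03 CPM in the AKI-CKD group, with a log2 fold change of 0.04 (-0.23 to 0.31).

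Cyp24a1 was at 74.3, 75.5 and 65.7 CPM in the Control group and 52.3, 113 and 167 CPM in AKI-CKD mice. One AKI-CKD mouse lay below all Control mice and 2 lay above them, and the log2 fold change was 0.62 with an interval from -0.26 to 1.51 (adjusted p = 0.49998 by edgeR). Without AKI-CKD mouse 1 it was 0.97 and without AKI-CKD mouse 3 it was 0.20. Cyp27b1 was at 3.59, 1.19 and 1.16 CPM in the Control group and 1.43, 2.76 and 3.82 CPM in AKI-CKD mice, with a log2 fold change of 0.42 (-0.60 to 1.43). Leaving out 1 mouse at a time moved it between 0.07 and 1.18.

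Among the receptors, Vdr was at 154, 134 and 148 CPM in the Control group and 115, 119 and 130 CPM in AKI-CKD mice. It was the only one of the 9 genes whose groups did not overlap in PT S1 cells, against 21.7% of all genes tested there, and its log2 fold change was -0.26 (-0.52 to 0.00233, adjusted p = 0.373 by edgeR). Kl was at 165, 188 and 190 CPM in the Control group and 166, 176 and 192 CPM in AKI-CKD mice, with a log2 fold change of -0.02 (-0.30 to 0.25). Fgfr1 was at 18.7, 14.5 and 14.98 CPM and at 13.4, 16.2 and 13.9 CPM, with a log2 fold change of -0.15 (-0.53 to 0.24). The interval of Kl ran from 0.812-fold to 1.19-fold of the Control level, whereas that of Cyp24a1 ran from 0.835-fold to 2.84-fold.

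In the distal cells where Kl and Vdr were highest, the groups overlapped for Kl. In CNT cells Kl was at 1023, 1332 and 1180 CPM in the Control group and 1387, 1404 and 1154 CPM in AKI-CKD mice (log2 fold change 0.16, -0.34 to 0.66), and in DCT cells at 334, 414 and 354 CPM and at 330, 406 and 322 CPM (-0.06, -0.48 to 0.37). Vdr in CNT cells was at 334, 420 and 481 CPM in the Control group and 462, 452 and 316 CPM in AKI-CKD mice (0.00, -0.40 to 0.40). In DCT cells Vdr was the only one of the 8 genes tested whose groups did not overlap, against 15.7% of all genes tested there, at 208 to 235 CPM against 193 to 201 CPM, with a log2 fold change of -0.17 (-0.52 to 0.19, adjusted p = 0.791 by edgeR). Vdr in macrophage cells had the smallest unadjusted p of this comparison (0.0097, adjusted p = 0.395 by edgeR). It was at 62.1 to 89.6 CPM in Control and 28.1 to 50.5 CPM in AKI-CKD mice before TMM scaling. These levels rest on 28 to 74 UMIs per Control mouse and 10 to 24 per AKI-CKD mouse. After TMM scaling, 1 of the 6 genes tested in macrophage cells had groups that did not overlap, against 15.4% of all genes. The PT reference in these cells was 39.8%, and its part was not tested. Fgfr1 had a log2 fold change of -0.03 (-0.53 to 0.47) in DCT cells and, in CNT cells, of 0.83 (0.00793 to 1.65, adjusted p = 0.879 by edgeR) at 16.2, 37.4 and 10.5 CPM against 41.9, 36.7 and 29.2 CPM. The CNT value was 1.505 without Control mouse 2 and 0.44 without Control mouse 3. It rests on 7, 18 and 7 UMIs in Control and 37, 24 and 10 UMIs in AKI-CKD mice.

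**Figure D3:**
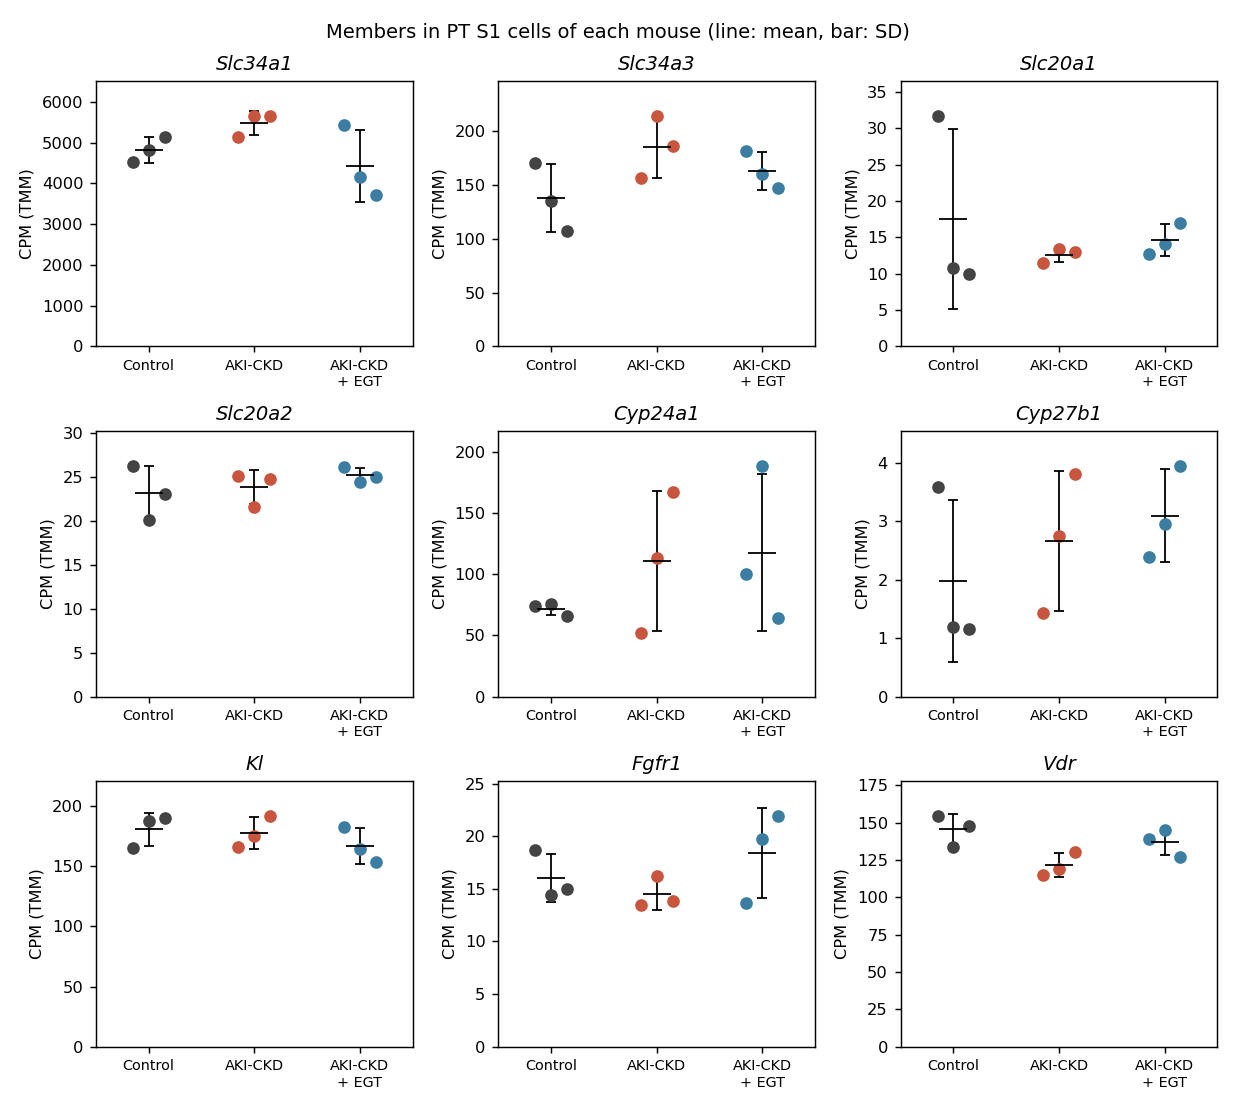
Levels of the 9 genes in PT S1 cells of each mouse (vertical axis from 0, CPM after TMM normalisation) by group (horizontal axis), with a line at the mean and a bar of 1 SD over 3 mice. Control and AKI-CKD mice overlap in every panel except that of Vdr, AKI-CKD and AKI-CKD + EGT mice overlap in every panel, and Control mouse 1 stands alone for Slc20a1 at 31.7 CPM.

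The effect of EGT on cisplatin-treated mice was addressed by comparing AKI-CKD + EGT with AKI-CKD mice. Again 0 of 89 tests passed edgeR's quasi-likelihood test after Benjamini-Hochberg adjustment, and DESeq2 called 0. In edgeR's test 6 of the 89 had an unadjusted p under 0.05. The share of all genes at that limit ran from 342 of 6365 in cycling cells to 2662 of 18000 in all PT cells. The smallest adjusted p was 0.161, for Cyp24a1 in TAL cells. There Cyp24a1 was at 9.69, 6.60 and 20.7 CPM in AKI-CKD mice and 22.9, 53.5 and 25.5 CPM in AKI-CKD + EGT mice, with 25.2, 19.95 and 7.07 CPM in the Control group. The counts were low, at 6, 8 and 18 UMIs in AKI-CKD and 14, 54 and 52 UMIs in AKI-CKD + EGT mice. In the Control group they were 28, 23 and 6 UMIs. The AKI-CKD + EGT mice lay above the AKI-CKD mice without overlap, against 16.4% of all genes tested in TAL cells whose groups did not overlap, and the log2 fold change was 1.49 (0.52 to 2.45). It passed the adjusted threshold when no filter on low counts was used and under no other alternative. The share of all genes called without that filter is not given here. DESeq2 gave Cyp24a1 in TAL cells no adjusted p. The log2 fold change was 2.11 without AKI-CKD mouse 3, 1.01 without AKI-CKD + EGT mouse 2, and 0.89, with overlapping groups, when the cells were clustered without correction for the library. Over all 9 mice Cyp24a1 in TAL cells was at 35.1% of its PT level, where the reference was 34.7%. The reference in TAL cells was 25.9%, 23.3% and 34.1% in AKI-CKD mice, 27.6%, 42.7% and 48.8% in AKI-CKD + EGT mice and 48.7%, 34.2% and 26.6% in the Control group. The mitochondrial share in TAL cells was 4.38%, 6.35% and 8.62% in AKI-CKD + EGT mice and 4.05%, 3.04% and 2.78% in the AKI-CKD group, also without overlap. The part of neither in the Cyp24a1 levels was tested. The share of all genes called was 0.0552% in TAL, 0.0162% in macrophage and 0.00496% in all cells, and 0% in the other 9 populations. In PT S1 cells 0 of the 9 genes had groups that did not overlap after TMM scaling, against 19.1% of all genes. Before that scaling, the groups did not overlap there for Slc20a1, Slc20a2 and Vdr (138 to 151 against 108 to 119 CPM). The share of all genes before scaling is not given here. In other populations, after TMM scaling, the genes without overlap were 3 of 8 in PT other (Slc34a1, Fgfr1 and Vdr, against 20.4% of all genes), and 2 of 9 in PT S3 (Slc34a1 and Vdr, 18.9%). They were 2 of 7 in TAL (Slc34a3 and Cyp24a1, 16.4%) and 2 of 6 in macrophage cells (Kl and Vdr, 15.8%). The count was 1 each in DCT (19.6% of all genes), cycling (11.2%), endothelial (15.6%) and all PT cells (20.75%) and 0 in CNT (11.5%), T (18.0%) and all cells (18.3%). For Slc34a1 in PT other cells the log2 fold change was -0.37 (-0.69 to -0.038, adjusted p = 0.309 by edgeR). By cluster and before TMM scaling, its groups overlapped in both large PT other clusters, at 3715 to 4121 against 3164 to 3961 CPM in the one of 23161 cells and at 2986 to 3417 against 2551 to 3221 CPM in the one with CNT markers.

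In PT S1 cells of AKI-CKD + EGT mice, Slc34a3 was at 182, 160 and 147 CPM (log2 fold change against AKI-CKD -0.19, -0.59 to 0.21), and Slc34a1, given above, had a log2 fold change of -0.31 (-0.70 to 0.085, adjusted p = 0.456 by edgeR). The AKI-CKD + EGT mice with the lowest Slc34a1, mice 2 and 3, had mitochondrial shares of 4.47% and 5.82% in these cells against 3.56% in mouse 1 and 2.24% to 3.38% in the AKI-CKD mice, and the part of this difference in the Slc34a1 level was not tested. Slc20a1 was at 12.6, 14.1 and 17.0 CPM (0.21, -0.58 to 1.00) and Slc20a2 between 24.4 and 26.1 CPM (0.08, -0.19 to 0.35). After TMM scaling the groups overlapped for both type III transporters. Before it they did not, at 12.6 to 19.3 against 11.2 to 12.1 CPM for Slc20a1. For Slc20a2 they were then at 25.5 to 28.4 against 19.5 to 24.5 CPM. These values before scaling have no share of all genes beside them, so they are not read as a result about the 2 genes.

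Cyp24a1 was at 99.8, 189 and 63.8 CPM in AKI-CKD + EGT mice, a range as wide as in AKI-CKD mice, with a log2 fold change of 0.09 (-0.79 to 0.96). Cyp27b1 was at 2.39, 2.95 and 3.95 CPM (0.22, -0.79 to 1.22). Kl was at 183, 164 and 154 CPM (-0.09, -0.37 to 0.18) and Fgfr1 at 13.7, 19.7 and 21.9 CPM (0.35, -0.040 to 0.73, adjusted p = 0.397 by edgeR). Vdr was at 139, 145 and 127 CPM, with mice 1 and 2 above all AKI-CKD mice and mouse 3 within their range, and with a log2 fold change of 0.17 (-0.089 to 0.43, adjusted p = 0.534 by edgeR).

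In CNT cells Kl was at 1588, 1296 and 728 CPM in AKI-CKD + EGT mice, so that mouse 3 was the lowest and mouse 1 the highest of all 9 mice, with a log2 fold change of -0.13 (-0.63 to 0.37). The reference level of PT RNA in CNT cells was 49.8% in mouse 3 and 17.4% in mouse 1, and its part in the Kl level was not tested. Kl in DCT cells had a log2 fold change of -0.09 (-0.52 to 0.33), Vdr of 0.17 (-0.30 to 0.64) in CNT and 0.10 (-0.25 to 0.45) in DCT cells, and Fgfr1 of -0.26 (-1.01 to 0.48) in CNT and 0.08 (-0.42 to 0.57) in DCT cells.

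**Figure D4:**
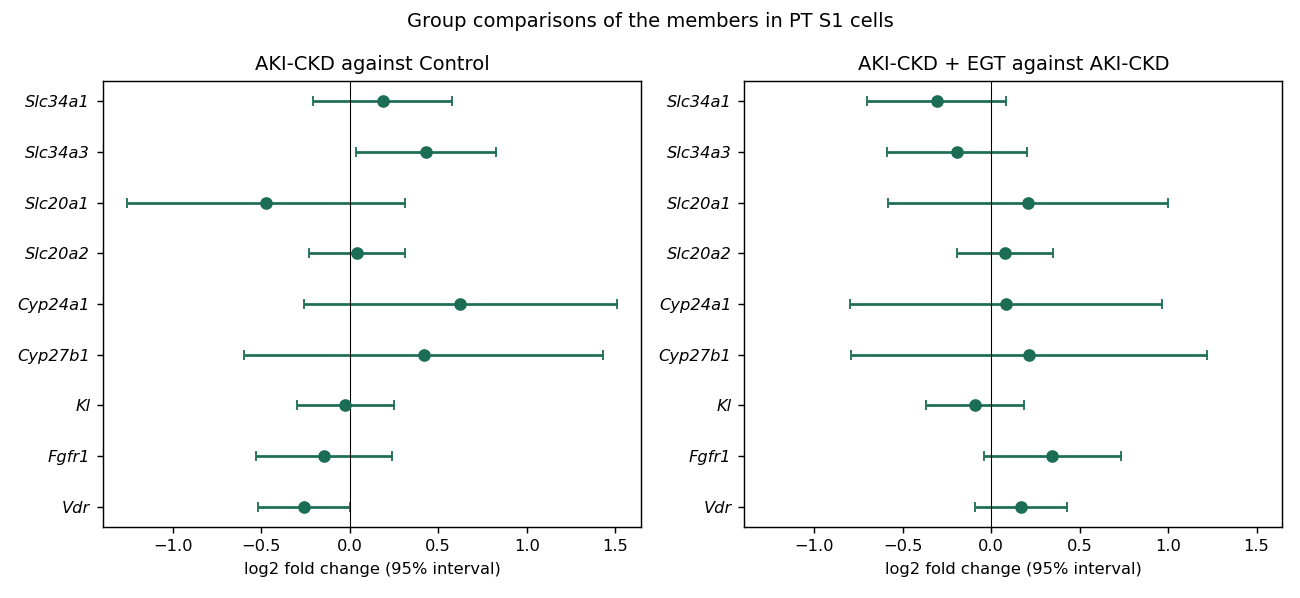
Log2 fold changes (horizontal axis) of the 9 genes (vertical axis) in PT S1 cells for AKI-CKD against Control (left) and AKI-CKD + EGT against AKI-CKD (right), with 95% intervals computed from the F statistics of edgeR's quasi-likelihood test. The intervals are narrow for Kl, Slc20a2 and Vdr and widest for Cyp27b1, and all but that of Slc34a3 in the left panel include 0.

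The wider pathway was read from lists of other genes. Of 19 phosphate genes (hormone receptors, the FGF receptors Fgfr2, Fgfr3 and Fgfr4, scaffolds of the transporters, the exporter Xpr1, enzymes of pyrophosphate metabolism), 14 could be tested in PT S1 cells, and 0 rose or fell in either comparison at an adjusted p under 0.05 (smallest edgeR adjusted p = 0.304 and 0.250). Of 13 genes of vitamin D uptake and action, 12 could be tested, and again 0 passed (smallest edgeR adjusted p = 0.299 and 0.238). The median log2 fold change of the phosphate list was 0.15 for AKI-CKD against Control and -0.02 for AKI-CKD + EGT against AKI-CKD, and that of the vitamin D list 0.14 and -0.11, beside -0.0020 and -0.015 over all genes tested. At an unadjusted p under 0.05, 2 phosphate genes were higher and 1 lower in AKI-CKD than in Control mice, and 2 vitamin D genes were higher and 1 lower, beside 2194 of all 16231 genes tested in PT S1 cells in either direction. For AKI-CKD + EGT against AKI-CKD, 2 phosphate genes were higher and 2 lower and 1 vitamin D gene was higher and 1 lower, beside 2317 of the 16231 genes. In DCT cells 4 of 12 phosphate genes were higher in that comparison and 0 lower at that limit (Nherf1, Fgfr2, Galnt3 and Xpr1, named after their values were seen), beside 1466 of 10245 genes. The median log2 fold change of the list was 0.43 there and the smallest edgeR adjusted p was 0.244. The PT reference in DCT cells ran from 18.7% to 29.9% over the AKI-CKD mice and from 23.7% to 44.3% over the AKI-CKD + EGT mice. Malat1 in these cells was at 6791 to 7852 CPM in the former and 10322 to 22933 CPM in the latter, with mitochondrial shares of 2.42% to 3.17% and 2.98% to 7.23%, and the part of these was not tested.

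The 3 most abundant genes of each list had their highest level in PT S1 cells, except Pth1r, which was highest in podocytes. Pdzk1, a scaffold that holds transporters at the brush border, was at 807 ± 73.6 CPM in PT S1 cells with log2 fold changes of 0.31 ± 0.14 (SE) for AKI-CKD against Control and -0.13 ± 0.14 for AKI-CKD + EGT against AKI-CKD. Pth1r, the parathyroid hormone receptor, was at 309 ± 25.6 CPM with 0.16 ± 0.14 and -0.38 ± 0.14, and Alpl, an alkaline phosphatase, at 298 ± 34.9 CPM with 0.39 ± 0.15 and -0.43 ± 0.15. Lrp2 (megalin), which takes up vitamin D bound to its carrier protein, was at 1289 ± 90.0 CPM with 0.12 ± 0.14 and -0.28 ± 0.14. Its adaptor Dab2 was at 481 ± 107 CPM with -0.47 ± 0.17 and 0.05 ± 0.17, and Rxra, the partner of Vdr on DNA, at 199 ± 29.0 CPM with 0.34 ± 0.15 and -0.31 ± 0.15. None of these passed the adjusted threshold in edgeR's test, with adjusted p between 0.256 and 0.915.

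Genes with the most similar profile over the 18 cell types were listed for each gene by Pearson correlation of logged mean CPM among 13172 genes of at least 10 CPM in a cell type. For Slc34a1 these were Kcnj15, Slc13a1 and Xylb (r = 0.996, 0.992 and 0.990), and for Slc34a3 they were Spp2, the glucose transporter Slc5a2 and Clec2h (0.978, 0.963 and 0.961), of which Spp2 and Slc5a2 were among the markers that named PT S1. Cyp24a1 was most like Gm13528, Spp2 and the amino acid transporter Slc7a9 (0.906, 0.902 and 0.892). Kl was most like Mymx, Gm50044 and Emx1 (0.910, 0.901 and 0.885) and Vdr most like Mccc1, Mymx and Ndufa1 (0.907, 0.882 and 0.878), which were all further from them than Kl and Vdr were from each other. The nearest genes of Slc20a1 (Chst11, Rnmt and Gm57200), Slc20a2 (Adam9, Itpr1 and Tmem38b), Cyp27b1 (Auts2, Unc5c and Parp16) and Fgfr1 (Tubgcp5, Crtc1 and Klhl15) had correlations between 0.798 and 0.913. The types share their libraries and the PT RNA found in all of them, so these values describe likeness only.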

How the data were processed

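Kidney cells of 9 mice were profiled with a droplet method (DNBelab C4), 1 library per mouse. The authors deposited 1 matrix of UMI counts per mouse, not normalized, written by PISA 1.0 per the file headers, with the build GRCm39 per the submitters' processing notes. The aligner and the annotation are not given in the sources used here. No column of the tables was left unmapped.

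The filters stated by the study were applied (1000 UMIs and 500 genes as minimums, 15% as the mitochondrial limit); further steps of the study were not repeated. Cells were clustered on 2000 variable genes. The 9 genes, the pathway genes and the mitochondrial, ribosomal and oxidative phosphorylation genes were kept out of these. Variable genes, 30 components, a Harmony correction for the library and 20 neighbours were computed with code written in numpy 2.4.6. Leiden clustering was by igraph 0.11.9 at resolution 1.1, with a second round for the cells outside the PT. A cluster was named where at least 3 markers of a type were raised 2-fold. PT segments were named by at least 3 markers raised 1.25-fold over the other PT clusters. Other clusters with PT marker levels of 75% or more of those in PT cells stayed unnamed. The segment and mixed-cluster limits were set after the clusters had been seen, and values by PT cluster were added then. The 9 genes and the gene lists were chosen with earlier results of these data known. Barcode names are numbered within a library, so names that libraries share (62337 of 98290) do not mark shared cells. Scrublet, run in scanpy 1.11.5, called 0 to 2 doublets in 8 libraries and 3924 in the other, so its calls were not used and no doublets were removed. Removing the 6% of cells with the highest scores was an alternative.

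Groups came from the sample labels. Levels were UMIs of a gene over all UMIs of a cell type in a mouse (CPM, on plain totals), for the 15 types with at least 20 cells in every mouse. Types next to each other in the order of a gene's mean level were compared within mice on log2(CPM + 1) by an exact sign-flip permutation test, two-sided, with Benjamini-Hochberg adjustment. These pairs are the nearest in level, so a pair that did not pass says nothing about types further apart. PT S1 and PT S3 cells were compared in the same way with adjustment over all genes, in place of the planned adjustment over the 9 genes. Groups were compared on counts summed per mouse in types with at least 50 cells in every mouse, with edgeR 4.0.16 in R 4.3.3 (filterByExpr, TMM, quasi-likelihood F test over all 9 mice, two-sided, Benjamini-Hochberg over all genes of a population, threshold 0.05). Both comparisons use the same AKI-CKD mice. The study's methods state 3 biological replicates per group, from mice of 1 strain (C57BL/6). SEs of fold changes were computed from edgeR's fold changes and F statistics, and intervals from these SEs with a t quantile. Both include the spread between mice, whereas limits on counts of 0 (3 counts) cover counting error only. Shares of cells with a UMI were taken after thinning each cell to 1000 UMIs, beside T and B cells. Named genes were all 9 genes, the 3 most abundant genes of each pathway list and any called, and the 3 genes most like each. The sign-flip and edgeR steps were tested on simulated data. Alternatives were DESeq2 1.42.0, median-ratio size factors, no filter, 6 mice, a replicate block, each mouse left out, library sizes without mitochondrial, ribosomal and Malat1 counts, other pseudocounts (0.1 and 10), a 10% mitochondrial limit, doublet removal, no library correction and, added after the data had been seen, 3 other random starts of the clustering.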

Additional observations from a re-analysis of the deposited data

Results flagged for a closer look

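Fgfr1 had fold changes of opposite sign in 2 cell types when AKI-CKD + EGT mice were compared with AKI-CKD mice, with no overlap between the groups in either. In PT other cells the AKI-CKD + EGT mice were at 9.06, 10.1 and 10.9 CPM and the AKI-CKD mice at 8.43, 8.00 and 6.72 CPM, with a log2 fold change of 0.37 (adjusted p = 0.376 by edgeR). By cluster and before TMM scaling, they were at 8.91, 10.9 and 13.1 against 8.59, 8.70 and 6.22 CPM in the cluster of 23161 cells and at 11.2, 10.2 and 10.9 against 6.81, 5.14 and 5.83 CPM in the one with CNT markers. The mitochondrial share in PT other cells was 4.15%, 5.58% and 7.34% in AKI-CKD + EGT and 3.81%, 3.16% and 2.27% in AKI-CKD mice, and its part was not tested. In endothelial cells the AKI-CKD + EGT mice were at 17.2, 37.5 and 43.0 CPM and the AKI-CKD mice at 44.6, 54.3 and 47.99 CPM, with a log2 fold change of -0.55 (adjusted p = 0.500108 by edgeR). The AKI-CKD mice held 33, 69 and 34 UMIs of Fgfr1 in endothelial cells. AKI-CKD + EGT mouse 1, with 14 UMIs, lay far below the other 2 mice of its group, with 45 and 55 UMIs. Without it the log2 fold change there was -0.30. Stress genes that rise in tissue dissociation (Fos, Jun, Junb, Egr1 and others, summed) were at 5103 CPM in that mouse, at 11620 and 11372 CPM in the other 2 and between 5456 and 14954 CPM in AKI-CKD mice. The mitochondrial share in endothelial cells was 3.43%, 5.93% and 7.05% in AKI-CKD + EGT and 3.47%, 2.73% and 2.13% in AKI-CKD mice, and the part of these was not tested. With each mouse left out in turn the value ran from -0.80 to -0.30 in endothelial and from 0.27 to 0.45 in PT other cells. Groups did not overlap in 20.4% of all genes tested in PT other cells and in 15.6% of those tested in endothelial cells. Neither change passed the adjusted threshold, and the difference between the cell types was not tested.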

How the results depend on the processing

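Under the alternatives, 823 values kept their direction and side of the threshold, 41 turned, 13 moved, 2 no longer passed and 1, the change of Cyp24a1 in TAL cells between AKI-CKD + EGT and AKI-CKD mice, newly passed, among the counts of calls and the values followed 1 by 1, and the cause was not tested. Over all populations, without a filter on low counts, 2 of the gene tests passed for AKI-CKD against Control (Cyp24a1 in PT S3 and Slc34a3 in PT other cells) and 1 for AKI-CKD + EGT against AKI-CKD (Cyp24a1 in TAL cells), and 0 passed under every other alternative, with any mouse left out included. The share of all genes called without that filter is not given here, so these calls have no background beside them. The random start of the clustering was added as an alternative after the data had been seen, because clusters without correction for the library changed with rounding in the last digits. Without that correction, the PT S1 to PT S3 difference of Slc20a2 turned to -0.035 in start 1 and -0.26 in start 3, that of Fgfr1 turned to -0.0014 in start 3, and those of Slc20a1 and Vdr fell to 0.11 and 0.077 in start 3 and no longer passed; with the correction, no start changed a call. With all UMIs of each cell instead of 1000, the shares of cells with a UMI were 99.1% for Slc34a1, 36.6% for Slc34a3, 21.9% for Cyp24a1 and 0.959% for Cyp27b1 in PT S1 cells, 4.70% for Slc20a1 in endothelial, 12.5% for Slc20a2 in principal, 28.9% for Fgfr1 in stromal, and 72.1% for Kl and 53.8% for Vdr in CNT cells, and those with both Kl and Fgfr1 were 8.12% in DCT and 5.94% in CNT cells.

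None of the group changes that turned had passed the test. Without correction for the library, AKI-CKD against Control turned to a log2 fold change of -0.0032 for Slc20a2 in PT S1 cells, -0.066 for Kl and -0.22 for Vdr in CNT cells and 0.034 for Fgfr1 in DCT and 0.056 in PT other cells, and AKI-CKD + EGT against AKI-CKD to 0.061 for Kl in DCT cells. At a mitochondrial limit of 10%, Kl in CNT cells turned to 0.0040 for AKI-CKD + EGT against AKI-CKD. Vdr in CNT cells, at 0.00 for AKI-CKD against Control, was at -0.0040 with median-ratio size factors, -0.010 with 6 mice, -0.0036 at the 10% limit, -0.00066 without the highest doublet scores and -0.00028 in DESeq2. Leaving out 1 mouse at a time gave ranges that crossed 0 for AKI-CKD against Control in Slc20a1 (-0.74 to 0.29), Slc20a2 (-0.047 to 0.14) and Kl (-0.085 to 0.027) of PT S1 cells, Kl (-0.17 to 0.051) and Fgfr1 (-0.17 to 0.084) of DCT cells, Fgfr1 (-0.24 to 0.037) of PT other cells and Vdr (-0.12 to 0.15) of CNT cells. The same held for AKI-CKD + EGT against AKI-CKD in Cyp24a1 (-0.44 to 0.50) and Cyp27b1 (-0.098 to 0.57) of PT S1 cells, Kl (-0.28 to 0.049) and Fgfr1 (-0.16 to 0.24) of DCT cells, and Kl (-0.39 to 0.13) and Vdr (-0.054 to 0.35) of CNT cells.

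With the replicate number as a block, 0 gene tests passed in either comparison and Vdr in CNT cells was at -0.039; the deviations of same-numbered mice correlated between -0.489 and 0.443 over all PT cells, with 1 of 9 pairs above 0.1, so the numbers were not taken to pair the mice. The number of neighbouring cell types that differed lay between 10 and 14 over the alternatives. The counts of Cyp27b1 limit any statement about it outside PT S1 cells, and 3 mice per group limit all group comparisons.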
